A study of Mus musculus with 2 samples.

Results

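The 38 genes described here are 2 sets of cell cycle genes and 1 histone gene, read in single endothelial cells (ECs) of the mammary gland and of mammary tumors. The S phase set has 16 genes, the mitosis set has 21, and Hist1h2ap was kept apart from both. They were chosen as a fixed list of names, with earlier results of these data known, so counts set beside all genes are descriptive. All 38 were listed in both deposited count tables, of the 14976 genes that both tables hold. The data are 2 droplet libraries of sorted CD45-/CD31+ cells. The normal library came from mammary glands of C57BL/6 mice, 6-8 weeks old, which were pooled, and the tumor library from pooled tumors of E0771, a mouse mammary carcinoma line that was implanted orthotopically. The labels give no strain, age or genotype of the mice that bore the tumors, and the methods of the study give a C57BL/6 background for its mice. The cell type and tissue labels of the normal library name TECs and E0771, whereas its title and the deposited design give normal glands, which is how it was read. Neither library has a replicate and pooled animals cannot be told apart, so no test was made, and every interval below is a 95% interval for counting error only.

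Cells divide after they have copied their DNA, and the genes for these steps are transcribed in separate waves. In late G1 and S phase, E2F factors are released from the pocket proteins (Rb1 and its relatives) and genes for origin licensing, the replication fork and deoxynucleotide supply are switched on. In G2 and mitosis, a second wave gives the cyclin B kinase, the spindle and kinetochore proteins and the chromosome passenger complex. Promoters of this wave hold CCAAT boxes and cell cycle homology regions (CHR), and the CHR is the element that the DREAM, B-Myb and FoxM1 complexes use. ECs of a resting adult vessel seldom divide, while ECs of a growing tumor do so more often.

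Cells with at least 200 genes, less than 10% mitochondrial UMIs (unique molecular identifiers, counted once per captured RNA molecule) and no UMI of Ptprc, Myh11, Epcam or Cspg4 were kept. A cell was called endothelial if Cdh5 plus Pecam1 had at least 1 UMI and more UMIs than Rhox5, Hmga2 and Krt8 together, and a cell of the tumor library was called cancer-like if the latter sum was higher. This gave 4912 cells of normal endothelium, 261 cells of tumor endothelium and 183 cancer-like cells, of 9047 and 704 barcodes, with medians of 2984, 16989 and 51995 UMIs. Another 288 and 12 kept cells fell in no group, and 3 barcodes were shared by the libraries. Levels are in CPM, counts per 1000000 UMIs of a group. In normal endothelium, tumor endothelium and cancer-like cells, 9 endothelial markers outside the cell rule summed to 6764, 6215 and 105 CPM. With Cdh5 and Pecam1, which the rule used, the 11 markers summed to 8926, 8345 and 123. Rhox5, Hmga2 and Krt8, also used by the rule, summed to 35.4, 6.24 and 1226. The mural list was at 258, 52.7 and 151 CPM in the 3 groups, the epithelial list at 107, 46.3 and 193, and the immune list at 18.4, 32.9 and 19.3. The epithelial sum covers 6 genes in the normal table and 4 in the tumor table. Of these, Krt18 and Krt19 had no UMI in tumor endothelium, and 3 and 2 UMIs in cancer-like cells. Cldn4 was at 13.0, 40.0 and 0.0968 CPM in the 3 groups, and Wfdc2 at 26.3, 6.24 and 193. Salivary gland genes, which are foreign to this tissue, held 2049 CPM in normal endothelium. Because depth differed this much, each cell was also thinned at random to 1900 UMIs, which left 3824, 239 and 169 cells and dropped 1088, 22 and 14 shallower ones.

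The promoters of the 2 sets differed in their motifs. RefSeq windows from 250 bases before to 50 bases after the start (GRCm38.p6) were matched to 31 of the 38 genes by symbol, and the 5 below were chosen because they show both promoter types. Capitals mark a CCAAT box (CCAAT), a CHR (TTTGAA or TTCGAA) or an E2F word (TT, then C or G at each of the next positions, then CGC), on either strand, and neighbouring or overlapping words run together. Mcm5 lies at chr8:75109259-75109558 on the plus strand, Mcm6 at chr1:128359656-128359955, Cdk1 at chr10:69352863-69353162, Ccnb2 at chr9:70421505-70421804 and Top2a at chr11:99024140-99024439, all 4 on the minus strand. Each is written 5′ to 3′ in the direction of its gene.
Mcm5: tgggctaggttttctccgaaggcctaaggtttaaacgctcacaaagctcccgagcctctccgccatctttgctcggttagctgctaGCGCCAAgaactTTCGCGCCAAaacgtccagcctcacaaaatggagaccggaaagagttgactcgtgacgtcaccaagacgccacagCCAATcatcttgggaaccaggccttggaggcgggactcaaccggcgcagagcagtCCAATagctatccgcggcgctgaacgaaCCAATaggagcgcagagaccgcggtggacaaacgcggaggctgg
Mcm6: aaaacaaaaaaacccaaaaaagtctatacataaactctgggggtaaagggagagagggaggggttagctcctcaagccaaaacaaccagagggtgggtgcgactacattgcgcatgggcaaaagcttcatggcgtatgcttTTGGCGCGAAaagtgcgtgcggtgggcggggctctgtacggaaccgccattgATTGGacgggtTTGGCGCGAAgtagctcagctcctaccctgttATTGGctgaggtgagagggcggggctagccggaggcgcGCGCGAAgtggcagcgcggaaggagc
Cdk1: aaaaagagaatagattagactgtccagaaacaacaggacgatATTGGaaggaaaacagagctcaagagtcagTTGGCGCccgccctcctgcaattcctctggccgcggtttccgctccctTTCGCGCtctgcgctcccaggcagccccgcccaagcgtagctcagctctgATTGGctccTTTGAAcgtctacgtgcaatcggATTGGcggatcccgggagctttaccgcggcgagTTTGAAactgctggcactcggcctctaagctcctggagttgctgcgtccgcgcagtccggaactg
Ccnb2: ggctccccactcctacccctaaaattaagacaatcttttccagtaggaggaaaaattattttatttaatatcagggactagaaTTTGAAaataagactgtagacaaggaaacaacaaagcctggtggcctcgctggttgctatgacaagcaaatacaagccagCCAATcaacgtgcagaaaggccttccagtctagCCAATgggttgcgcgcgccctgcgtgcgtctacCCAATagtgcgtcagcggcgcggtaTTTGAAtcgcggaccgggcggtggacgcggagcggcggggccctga
Top2a: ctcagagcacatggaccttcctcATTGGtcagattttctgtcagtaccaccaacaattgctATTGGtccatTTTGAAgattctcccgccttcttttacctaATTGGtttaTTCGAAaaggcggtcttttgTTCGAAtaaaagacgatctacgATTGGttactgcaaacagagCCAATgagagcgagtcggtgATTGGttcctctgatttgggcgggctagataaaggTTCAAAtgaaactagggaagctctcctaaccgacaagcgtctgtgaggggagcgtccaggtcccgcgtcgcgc

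The 2 S phase promoters, of the helicase subunits Mcm5 and Mcm6, hold E2F words and no CHR. In Mcm6, E2F words overlap in pairs from base -109 and from base -46, where base 1 is the start of the transcript. The mitosis promoters hold CHRs beside CCAAT boxes. Top2a has 4 CHRs and 6 CCAAT boxes and no E2F word, Ccnb2 has 2 CHRs and 3 CCAAT boxes, and Cdk1, the kinase that starts mitosis, has 2 CHRs, 3 CCAAT boxes and 2 E2F words.

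Over the matched genes, an E2F word was present in 8 of 13 S phase genes (61.5%) and in 3 of 18 mitosis genes (16.7%), beside 10.9% of all 27025 genes with a window. A CHR was present in 2 of 13 S phase genes (15.4%) and 13 of 18 mitosis genes (72.2%), beside 21.7% of all genes. CCAAT boxes were common in both sets, at 69.2% and 88.9%, beside 41.1% of all genes. A CCAAT box together with a CHR was present in 15.4% of the S phase genes, 72.2% of the mitosis genes and 9.65% of all genes. A gene with several windows counted once if any of them held the word, and E2F and CCAAT words can share bases, as they do in Ccnb1 from base -102. The mitosis gene Tubb4b, which was not higher in tumor endothelium, has 5 CCAAT boxes and 1 CHR as well.

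Most genes of both sets were higher in tumor than in normal endothelium, and the mitosis genes by more. Levels are CPM, not divided by gene length, so each gene was compared only with itself across groups. Across all genes with a mean of at least 5 CPM over the 2 groups, 10.6% were higher in tumor endothelium by 2-fold or more and 19.1% were lower, with a median log2 ratio of -0.13 over 9720 genes. Of the S phase genes, 12 of 16 were at least 2-fold higher and 0 were lower, with a median log2 ratio of 1.44. Of the mitosis genes, 18 of 21 were at least 2-fold higher and 0 were lower, with a median of 2.39. All 38 genes passed the minimum, but 8 of them (Gins2, Ccne2, Ccnb1, Aurka, Aurkb, Plk1, Bub1 and Kif11) were below 5 CPM in normal endothelium, and of those at or above it, 10 of 14 S phase and 12 of 15 mitosis genes were at least 2-fold higher, beside 7.90% of all genes at or above it.

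At 1900 UMIs per cell the distance between the sets was wider. The median log2 ratio of tumor over normal endothelium was 0.88 for the S phase genes and 2.89 for the mitosis genes, beside -0.15 for all 9720 genes. At least 2-fold higher were 7 of 16 S phase genes, down from 12, and 18 of 21 mitosis genes, beside 11.4% of all genes, and 0 of either set were at least 2-fold lower, beside 22.5% of all genes. The point value was higher in tumor endothelium for 12 of 16 S phase and 20 of 21 mitosis genes. No share of all genes was computed for point values, but the median ratio of all genes was below 0. The interval lay above 0 for 8 of 16 S phase and 17 of 21 mitosis genes, beside 18.1% of all genes with such an interval. Of the 37 genes of the sets, the interval of Tubb4b lay below 0, beside 22.0% of all genes. With each cell given the same weight before thinning, the medians were 1.12 and 3.08.

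**Figure D1:**
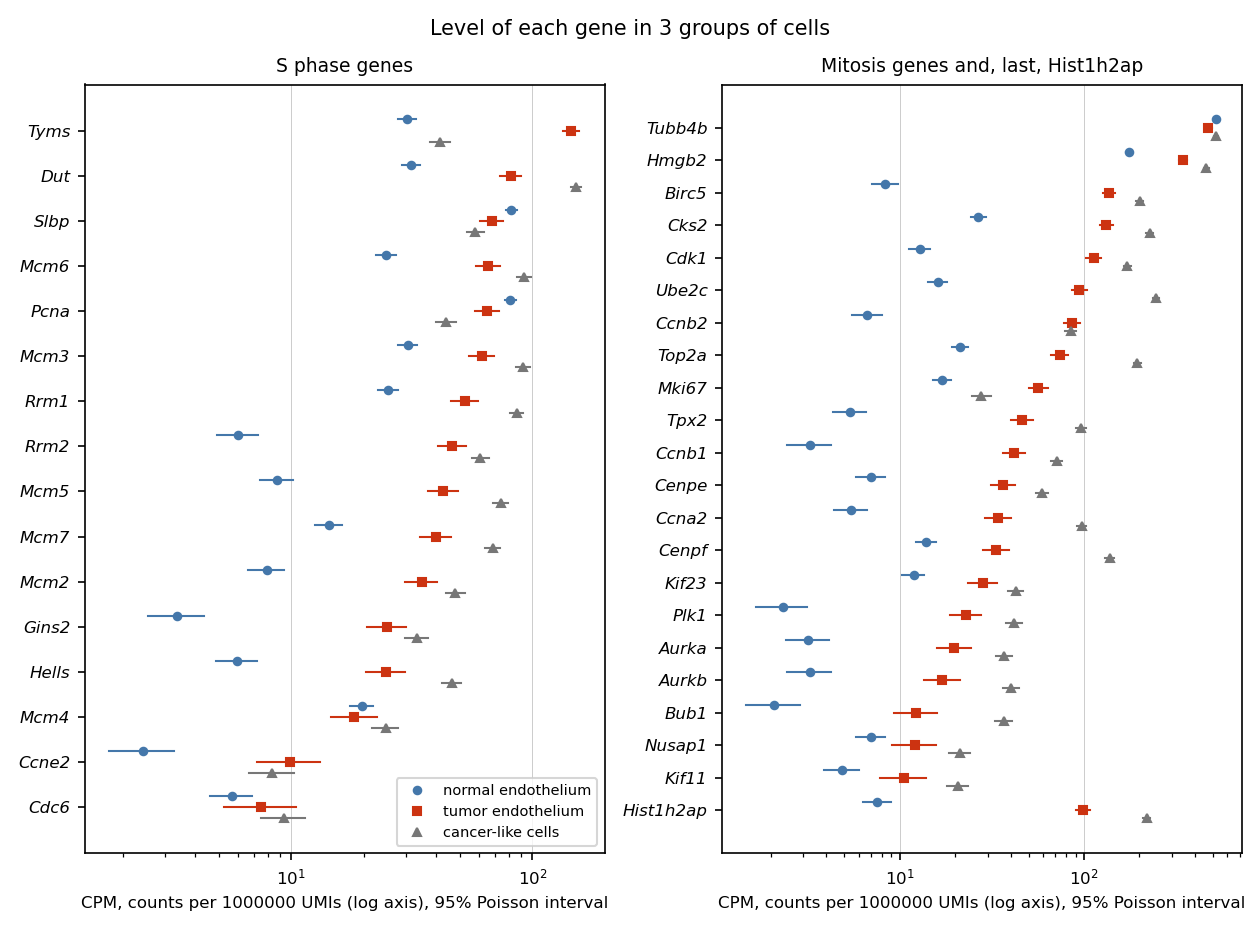
Each row is a gene and each point its level in CPM (log axis) in normal endothelium (circles), tumor endothelium (squares) and cancer-like cells (triangles), with 95% Poisson intervals. In both panels the circles lie to the left for most genes, for example Birc5 at 8.33 in normal and 137 in tumor endothelium, while Tubb4b, Pcna, Slbp and Mcm4 stay close together or lie to the right.

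The 6 subunits of the replicative helicase, Mcm2 to Mcm7, act as a single ring but did not move together. Mcm5 was at 8.74, 42.6 and 73.9 CPM in normal endothelium, tumor endothelium and cancer-like cells, and Mcm2 was at 7.93, 34.7 and 47.8. Their log2 ratios of tumor over normal endothelium were 2.29 (1.97 to 2.60) and 2.13 (1.79 to 2.47). Mcm3, Mcm6 and Mcm7 had ratios of 1.02 to 1.47, and Mcm4 stood at 19.6, 18.3 and 24.6 CPM, a log2 ratio of -0.10 (-0.46 to 0.25). The Mcm4 interval includes 0, so no difference of Mcm4 between normal and tumor endothelium was detectable at this depth. Cdc6, the loader of the ring, had 5.67, 7.53 and 9.30 CPM, and its interval also included 0 (0.41, -0.19 to 0.98). Gins2, which activates the loaded ring, had 3.36, 25.0 and 33.1, a log2 ratio of 2.90 (2.43 to 3.38). At equal depth the intervals of Mcm3 (0.47, -0.24 to 1.12), Mcm4 (0.29, -0.81 to 1.21) and Mcm6 (0.53, -0.34 to 1.30) included 0. Those of Mcm2, Mcm5 and Mcm7 lay above 0.

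The genes of nucleotide supply were all higher in the sum over tumor endothelium. Rrm2, the ribonucleotide reductase subunit whose level follows S phase, rose from 6.02 to 46.5 CPM, a log2 ratio of 2.95 (2.61 to 3.30), and was at 60.9 in cancer-like cells. Its partner Rrm1 went from 25.1 to 52.5 and to 86.0, a log2 ratio of 1.06 (0.83 to 1.29) between the endothelial groups, which at equal depth was -0.30 (-1.45 to 0.66) on 9 UMIs in tumor endothelium. Tyms, which makes thymidylate, was at 30.3, 145 and 41.5 CPM, and thus highest in tumor endothelium. Dut, which clears dUTP, was at 31.4, 81.1 and 151, highest in cancer-like cells. Hells, a chromatin remodeller of newly copied DNA, was at 5.96, 24.8 and 46.3, and the G1/S cyclin Ccne2 at 2.43, 9.90 and 8.33.

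Pcna and Slbp, like Mcm4, were not higher in the sum over tumor endothelium, and they were the S phase genes whose intervals lay below 0. Pcna, the sliding clamp, which is also induced by DNA damage, was at 80.9 CPM in normal endothelium, 64.8 in tumor endothelium and 44.0 in cancer-like cells. Slbp, which binds histone mRNA, was at 81.7, 67.8 and 58.0. Their log2 ratios of tumor over normal endothelium were -0.32 (-0.50 to -0.14) and -0.27 (-0.45 to -0.09). In the sums, the levels of both genes stepped down from normal endothelium to cancer-like cells. At equal depth both intervals between the endothelial groups included 0, and Slbp was at 59.5 CPM in tumor endothelium and 68.5 in cancer-like cells (0.20, -0.68 to 1.07). These 2 genes held 43.0% of the S phase UMIs of normal endothelium and 10.9% of those of cancer-like cells.

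Among the mitosis genes, the regulators of mitotic entry and exit had large ratios. Cdk1 was at 12.8, 113 and 172 CPM in normal endothelium, tumor endothelium and cancer-like cells. Its cyclins Ccnb1 (3.24, 41.8 and 71.1) and Ccnb2 (6.65, 86.5 and 84.7) had log2 ratios of tumor over normal endothelium of 3.69 (3.25 to 4.14) and 3.70 (3.40 to 4.01). Ccna2, a cyclin of S phase and G2, was at 5.44, 34.2 and 97.1. Cks2, a small Cdk1 subunit, was at 26.7, 132 and 227, and Ube2c, the ubiquitin conjugating enzyme of the anaphase promoting complex, was at 16.1, 94.3 and 245. Plk1 was at 2.31, 22.8 and 41.7, and Aurka at 3.18, 19.8 and 36.7. In these sums, the ratio of cancer-like cells over tumor endothelium had an interval that included 0 for Ccnb2 alone among the 8 genes, and at equal depth for Ccnb1 (-0.05 to 2.37) and Plk1 (-0.40 to 3.68) as well.

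The chromosome passenger, spindle and kinetochore genes spread more widely. Birc5 (survivin), a chromosome passenger subunit, had the largest ratio of the 38 genes, from 8.33 to 137 CPM or 4.04 (3.78 to 4.31) on the log2 scale. Aurkb, the kinase of the same complex, was at 3.24, 17.0 and 40.2. The spindle genes Tpx2 (5.38, 46.1 and 96.7), Cenpe (6.94, 36.4 and 59.2) and Bub1 (2.08, 12.3 and 36.6) rose in the same order of groups. Smaller ratios in the sums were seen for Cenpf at 1.26 (0.96 to 1.56), Kif23 at 1.25 (0.92 to 1.57), Kif11 at 1.12 (0.58 to 1.64) and Nusap1 at 0.78 (0.30 to 1.25). At equal depth Cenpf was at 2.05 (1.15 to 2.86) and Kif11 at 2.42 (0.94 to 3.70). There, Kif23 was at 1.06 (-0.13 to 2.07) and Nusap1 at 0.50 (-1.85 to 2.17). In the sums, Cenpf had the largest ratio of cancer-like cells over tumor endothelium of the 38 genes, 2.04 (1.80 to 2.29), at 33.4 against 138 CPM. At equal depth the point values of Aurka (2.50), Rrm1 (2.24) and Ube2c (2.08) were above that of Cenpf (2.02).

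The chromatin genes Top2a, Mki67 and Hmgb2 took different courses. Top2a, which untangles sister DNA, was at 21.3, 74.0 and 195 CPM in the 3 groups. Mki67, the coat of mitotic chromosomes behind the Ki-67 stain, was at 17.0, 56.6 and 27.7. Thus both were higher in tumor than in normal endothelium, at log2 ratios of 1.80 (1.58 to 2.01) and 1.74 (1.49 to 1.98), but Top2a was higher and Mki67 lower in cancer-like cells. At 1900 UMIs, Top2a was present in 41 of 3824, 16 of 239 and 39 of 169 cells (1.07%, 6.69% and 23.1%), and Mki67 in 27, 19 and 3 cells (0.706%, 7.95% and 1.78%). Hmgb2, a chromatin protein that is also expressed outside of mitosis, was at 176, 345 and 461 CPM.

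Tubb4b, a tubulin of spindle and interphase microtubules, varied little, at 521, 472 and 521 CPM, with log2 ratios of -0.14 (-0.21 to -0.08) between the endothelial groups and 0.14 (0.07 to 0.22) for cancer-like cells over tumor endothelium. It was present in 56.5%, 46.0% and 48.5% of cells at 1900 UMIs. It alone held 59.6% of the mitosis UMIs of normal endothelium, 25.9% in tumor endothelium and 18.4% in cancer-like cells. Sums over the mitosis set therefore depended on this gene.

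**Figure D2:**
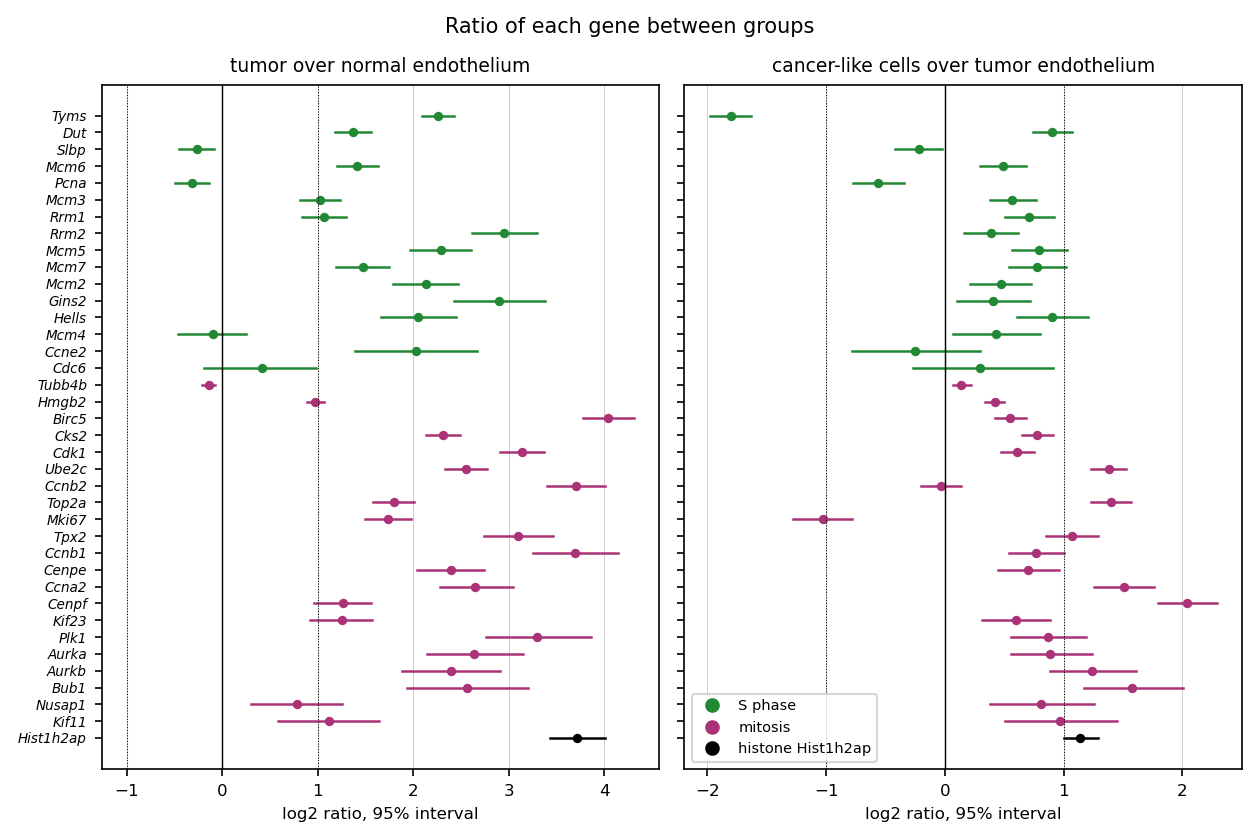
The log2 ratio of each gene with its 95% interval is plotted for tumor over normal endothelium (left) and cancer-like cells over tumor endothelium (right), with dotted lines at 2-fold. Left, most mitosis genes lie further right than the S phase genes, up to 4.04 for Birc5. Right, Tyms (-1.80) and Mki67 (-1.03) are the points past 2-fold to the left.

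Cancer-like cells differed from tumor endothelium of the same library mainly in the mitosis genes. Among all genes compared, 15.8% were at least 2-fold higher in cancer-like cells and 19.9% were lower, with a median log2 ratio of 0.03 over 9488 genes. Of the S phase genes, 0 of 16 were at least 2-fold higher and 1 was lower (Tyms, -1.80, -1.98 to -1.63), with a median of 0.45. Of the mitosis genes, 7 of 21 were at least 2-fold higher (Cenpf, Bub1, Ccna2, Top2a, Ube2c, Aurkb and Tpx2) and 1 was lower (Mki67, -1.03, -1.28 to -0.78), with a median of 0.81. At 1900 UMIs the medians were 0.57 and 1.33, beside 0.05 for all genes, and 6 S phase and 13 mitosis genes were at least 2-fold higher, beside 22.7% of all genes. At least 2-fold lower were 2 S phase genes and 1 mitosis gene, beside 25.0% of all genes. There, Tyms had 115 and 28.0 CPM (-2.03, -3.24 to -1.0), Mki67 46.2 and 9.34 (-2.31, -4.70 to -0.56) and Pcna 55.1 and 21.8 (-1.34, -2.79 to -0.09). The last 2 rest on 3 and 7 UMIs in the cancer-like cells.

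Hist1h2ap, a histone H2A gene of S phase, rose in the same order, at 7.52, 99.0 and 219 CPM. Its log2 ratios were 3.72 (3.43 to 4.01) and 1.14 (1.00 to 1.29). A stricter cell rule asked for at least 3 UMIs of one gene sum of the rule and none of the other. Under it, the ratio of cancer-like cells over tumor endothelium was 0.37, below its counting interval, so the size of this step depended on the cell rule. Histone genes of this cluster have near-identical copies, so its counts may include reads of others or lack some of its own.

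The sums of the sets were close to 2-fold higher in tumor endothelium for both. The S phase sum was 378 (369 to 388), 788 (762 to 813) and 937 (919 to 956) CPM in normal endothelium, tumor endothelium and cancer-like cells, and the mitosis sum was 875 (861 to 889), 1825 (1786 to 1864) and 2835 (2803 to 2868). The log2 ratio of tumor over normal endothelium was 1.06 for both, and that of cancer-like cells over tumor endothelium was 0.25 (0.20 to 0.31) for S phase and 0.64 (0.60 to 0.67) for mitosis. At equal depth these ratios were 0.70 and 0.85, and 0.51 and 0.88. Without Pcna and Slbp, and without Tubb4b and Hmgb2, a choice made after the values were seen, the sums were 216, 655 and 835 for S phase and 178, 1008 and 1853 for mitosis. The log2 ratio of tumor over normal endothelium was then 1.60 (1.53 to 1.67) and 2.50 (2.43 to 2.57).

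The balance of mitosis to S phase UMIs followed from this. With all members it was 2.31 (2.25 to 2.38) in normal endothelium, 2.32 (2.23 to 2.41) in tumor endothelium and 3.02 (2.96 to 3.10) in cancer-like cells. Pcna, Slbp, Tubb4b and Hmgb2 were the most abundant genes of their sets in normal endothelium. Without them the balance was 0.826 (0.787 to 0.867), 1.54 (1.47 to 1.61) and 2.22 (2.16 to 2.28). At equal depth it was then 0.526 (0.482 to 0.574), 1.59 (1.34 to 1.90) and 2.44 (2.10 to 2.85). The 3 groups thus separated only when these 4 genes were left out. In single cells, a balance of 2 lists also depends on how many UMIs each gene gives, so it is a comparison between groups and not a count of cells in a phase.

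Cells with several genes of a set were counted at 1900 UMIs. At least 3 mitosis genes were detected in 73 of 3824 cells of normal endothelium (1.91%, 1.50 to 2.39), 49 of 239 cells of tumor endothelium (20.5%, 15.6 to 26.2) and 97 of 169 cancer-like cells (57.4%, 49.6 to 65.0), with Clopper-Pearson intervals that did not overlap. At least 3 S phase genes were detected in 2.54% (2.06 to 3.09), 10.9% (7.23 to 15.5) and 20.7% (14.9 to 27.6). The S phase shares of tumor endothelium and cancer-like cells had overlapping intervals, and with 1000 UMIs per cell they were 6.32% and 6.18%. Before thinning, the mitosis shares were 4.85%, 61.7% and 89.1% and the S phase shares 10.1%, 62.1% and 87.4%, closer to each other than at equal depth in the 2 groups of the tumor library. Without Pcna, Slbp, Tubb4b and Hmgb2, the mitosis shares at equal depth were 0.732%, 15.5% and 45.0% and the S phase shares 1.02%, 6.69% and 16.6%.

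**Figure D3:**
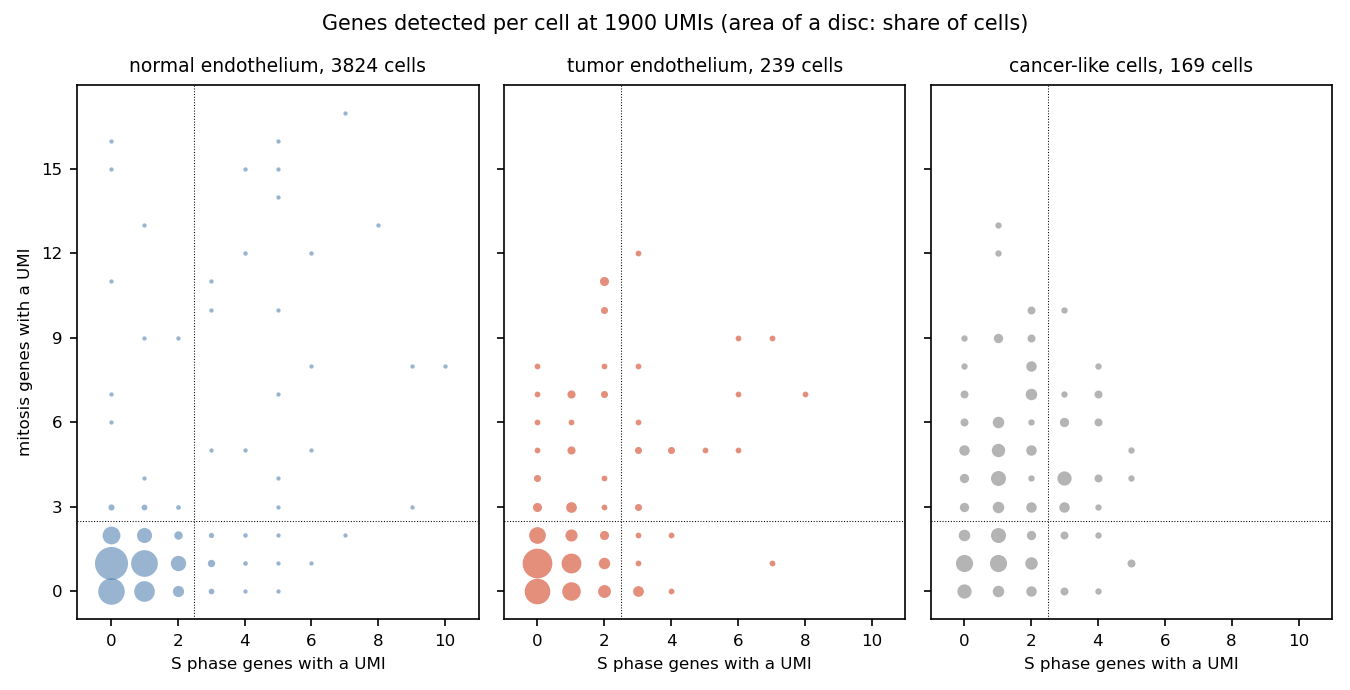
Each disc is a combination of the number of S phase genes (x axis) and mitosis genes (y axis) with a UMI in a cell at 1900 UMIs, and its area is the share of the cells of that group. In normal endothelium 96.2% of cells sit at or below 2 of each. Another 1.94% have at least 3 S phase genes only and 1.31% at least 3 mitosis genes only, with up to 17 mitosis genes in a cell. By contrast, 57.4% of cancer-like cells lie above the dotted line, with at least 3 mitosis genes.

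The cells with many mitosis genes were rare in normal endothelium, though several of them carried most of the set. There, 1 cell had 17 of the 21 mitosis genes, 2 had 16 and 3 had 15. The most in a cell was 12 in tumor endothelium and 13 in cancer-like cells, where far fewer cells were read. Cells with at least 3 genes of both sets were 23 in normal endothelium, 15 in tumor endothelium and 27 among cancer-like cells. Of the cells with at least 3 S phase genes, 23.7% (15.7 to 33.4), 57.7% (36.9 to 76.6) and 77.1% (59.9 to 89.6) also had at least 3 mitosis genes. The reverse share was similar in the 3 groups, at 31.5% (21.1 to 43.4), 30.6% (18.3 to 45.4) and 27.8% (19.2 to 37.9).

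With all members, the top 1% of cells of normal endothelium held 13.0% of the mitosis and 9.93% of the S phase UMIs and the top 5% held 26.2% of each, and in tumor endothelium the top 5% held 31.0% and 30.2%. The sets stood further apart in normal endothelium once Pcna, Slbp, Tubb4b and Hmgb2, chosen after the values were seen, were left out. Then the 39 cells (1%) of normal endothelium with most mitosis UMIs held 522 of 788 (66.2%), and the 39 with most S phase UMIs held 198 of 1498 (13.2%). No UMI of the remaining 19 mitosis genes was seen in 3538 of its 3824 cells (92.5%), against 155 of 239 (64.9%) in tumor endothelium and 34 of 169 (20.1%) among cancer-like cells. In tumor endothelium, the top 5% of cells held 41.6% of mitosis and 32.4% of S phase UMIs, and in cancer-like cells 20.2% and 17.4%. The contrast between the sets in normal endothelium thus depended on leaving out these 4 genes.

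**Figure D4:**
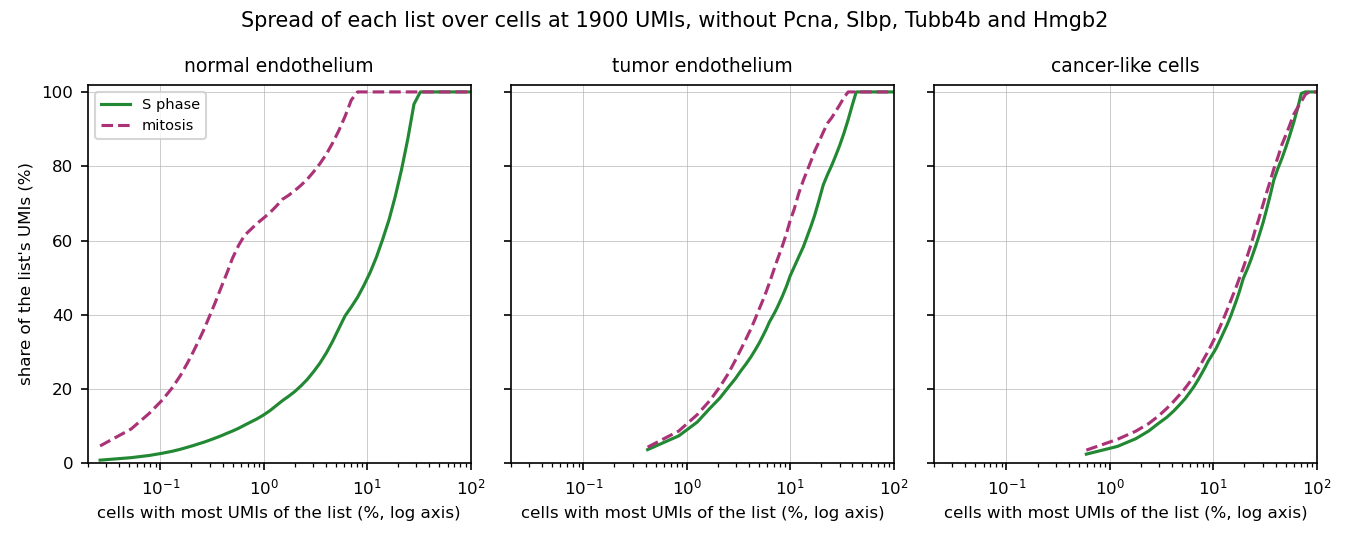
The cumulative share of the UMIs of 14 S phase and 19 mitosis genes, without Pcna, Slbp, Tubb4b and Hmgb2 (y axis, %), is plotted against the share of cells with most of them (x axis, %, log axis) at 1900 UMIs per cell, for S phase (solid) and mitosis (dashed). In normal endothelium the dashed line is at 66.2% when the solid line is at 13.2%, at 1% of cells, while the lines nearly coincide in cancer-like cells.

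S phase genes were then compared inside and outside the cells with at least 3 mitosis genes, a choice of cells that used no S phase gene. In normal endothelium, S phase genes were at 1449 CPM inside (1256 to 1664) and 342 outside (329 to 356), a log2 ratio of 2.08 (1.87 to 2.29). In tumor endothelium they were at 1299.7 (1078 to 1553) and 407 (344 to 479), a ratio of 1.67 (1.32 to 2.03), and in cancer-like cells at 998 (859 to 1154) and 629 (503 to 776), a ratio of 0.67 (0.29 to 1.05). The point value outside rose from group to group while the point value inside fell. But the intervals of normal and tumor endothelium overlapped on both sides, as did those inside for tumor endothelium and cancer-like cells. With cells chosen by the 19 mitosis genes without Tubb4b and Hmgb2, the ratios were 3.0 (2.75 to 3.24), 1.84 (1.47 to 2.20) and 0.21 (-0.15 to 0.56), so in cancer-like cells the difference was no longer detectable.

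Single S phase genes differed in how far they followed the mitosis genes. In normal endothelium, Rrm2 was at 123 CPM inside and 1.54 outside (17 and 11 UMIs), a log2 ratio of 6.31 (5.13 to 7.55), and Ccne2 at 50.5 and 1.54 (5.03, 3.43 to 6.53). By contrast, Slbp at 209 and 78.3 (1.42, 0.83 to 1.96) and Pcna at 216 and 73.4 (1.56, 0.98 to 2.09) had smaller ratios. Hist1h2ap was at 187 and 2.39 in normal endothelium, 226 and 19.4 in tumor endothelium and 315 and 21.9 in cancer-like cells, so its difference held in all 3 groups, with log2 ratios of 6.30, 3.54 and 3.84. The interval lay above 0 for 13 of 16 S phase genes in normal endothelium and 6 of 16 in tumor endothelium, where Mcm2 had a point value below 0 (21.5 inside and 30.5 outside, -0.50, -3.72 to 1.69). Among the 6, Tyms was at 290.0 and 69.3 (2.07, 1.23 to 2.91), Rrm2 at 96.7 and 8.31 (3.54, 1.54 to 6.06) and Mcm3 at 150.4 and 19.4 (2.96, 1.55 to 4.50). In cancer-like cells the interval lay above 0 for Rrm1 (1.29, 0.02 to 2.75) and Slbp (1.74, 0.14 to 3.76) only among the 14 S phase genes with UMIs on both sides. These counts have no share over all genes beside them. They rest on 2638, 268 and 270 S phase UMIs in the 3 groups, so they cannot be compared between groups.

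Markers were read in the cells with at least 3 mitosis genes at 1900 UMIs, leaving out Cdh5 and Pecam1, which the cell rule used. Cells with Ptprc, Myh11, Epcam or Cspg4 had been removed, which lowers the immune, mural and epithelial lists. The 9 endothelial markers other than Cdh5 and Pecam1 had a UMI in 73 of 73 of them in normal endothelium, at 5429 CPM against 7094 in the other cells, and in 48 of 49 in tumor endothelium, at 5188 against 6459.8. Among cancer-like cells 23 of 97 had such a UMI, at 136 against 73.1 CPM. Of the 49 cells of tumor endothelium, 3 had a mural UMI, 2 an immune UMI, 0 a fibroblast UMI and 0 an epithelial UMI. In normal endothelium 15 of the 73 had a mural UMI, 12 an epithelial, 2 a fibroblast, 2 an immune and 58 a salivary UMI, and the salivary list was at 1175 against 1984 CPM. Of the 97 cancer-like cells, 38 had an epithelial UMI (282 against 109.6 CPM), 19 a mural, 7 a fibroblast and 2 an immune UMI (43.4 against 14.6 CPM for the immune list). Their median depth before thinning was higher than that of the other cells, at 5033 against 3453 UMIs in normal endothelium, 27083 against 16804 in tumor endothelium and 62418 against 50344 among cancer-like cells. The part of depth and of other cell types in these counts was not tested.

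The level at which RNA of cancer-like cells is seen in tumor endothelium of the same library was read from other genes. Genes with at least 100 CPM in cancer-like cells and less than 1 in normal endothelium were Dusp9, Nppb, Spp1 and Gpnmb, and in tumor endothelium they were at 1.06% to 6.00% of the cancer-like level (median 1.22%). The S phase genes of tumor endothelium were at a median of 73.4% of their cancer-like level, and the mitosis genes at 57.1% (24.3% to 204%).

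Genes of the same steps that are not in the 2 sets were read in the same way. Since many of them had few UMIs in normal endothelium, counts are given for genes with at least 5 CPM in normal endothelium, beside the 7.90% of all such genes that were at least 2-fold higher. For the spindle checkpoint and kinetochore this was 3 of 3, Spc24 (6.08 and 50.1 CPM), Cdc20, the activator of the anaphase promoting complex (7.87 and 67.6), and Cenpa, the centromeric histone (20.9 and 104). For cytokinesis it was 3 of 4, with Cdca8 (5.44 and 56.2) and Racgap1 (5.44 and 41.1). For condensation and spindle motors it was 3 of 6, with Smc4 at 75.7 and 93.4, and a median log2 ratio of 1.0. For the replication fork and nucleotide supply it was 7 of 11 with a median of 1.23, among them Rfc4 (8.22 and 24.5), and for origin licensing 2 of 4 with a median of 1.03. Genes below 5 CPM in normal endothelium included thymidine kinase Tk1 (4.86 and 43.3), Cdt1 (4.80 and 16.8), Cdc45 (2.43 and 14.0) and Kif2c (1.16 and 12.7). The lists are short and are described by these counts alone.

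Several genes that hold cells in G1 were lower in tumor endothelium. Of 5 CDK inhibitors with enough UMIs, 0 were at least 2-fold higher in tumor endothelium and 2 were lower, beside 10.6% higher and 19.1% lower of all genes. Cdkn1a (p21) was at 703 CPM in normal endothelium, 180.2 in tumor endothelium and 87.9 in cancer-like cells, and Cdkn1c (p57) at 169.7, 3.87 and 0.387, the last on 4 UMIs. Their log2 ratios of tumor over normal endothelium were -1.97 (-2.07 to -1.86) and -5.45 (-6.21 to -4.79). Cdkn1b (p27) was at 71.2, 37.7 and 24.2, a ratio of -0.92 (-1.16 to -0.69). Cdkn2a and Cdkn2b (p15), with too few UMIs to enter the counts, went the other way, from 9 UMIs (0.521 CPM) to 14 (3.01 CPM) and from 12 (0.694 CPM) to 42 (9.04 CPM), with 0 UMIs in cancer-like cells. Of the pocket proteins, Rb1 was at 56.2, 15.3 and 4.36 and Rbl2 (p130) at 18.3, 3.87 and 8.81, whereas Rbl1 (p107) was at 13.6, 10.5 and 10.6 with an interval that included 0.

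Of the G1 cyclins and kinases with at least 5 CPM in normal endothelium, 3 of 6 were at least 2-fold higher in tumor endothelium, beside 7.90% of all such genes. Ccnd1 was at 199.6, 463 and 358 CPM, higher in tumor than in normal endothelium by 1.21 (1.14 to 1.29) on the log2 scale, and lower in cancer-like cells than in tumor endothelium by -0.37 (-0.45 to -0.30). Its kinases Cdk4 (67.8, 169 and 254) and Cdk6 (11.7, 51.9 and 85.7) were highest in cancer-like cells. Ccnd2 was at 204, 57.3 and 247, lower in tumor endothelium than in either other group. Ccnd3 was at 87.2, 109.6 and 58.1, and Ccne1 at 1.56, 10.1 and 28.2. Of the E2F, B-Myb and FoxM1 factors, 3 of 6 genes with enough UMIs were at least 2-fold higher in tumor endothelium, beside 10.6% of all genes. Their median log2 ratio was 0.97. But 3 of these 6 had at least 5 CPM in normal endothelium, and 1 of those 3 was higher, beside 7.90% of all such genes. E2f1 (2.95, 18.3 and 22.9) and Foxm1 (2.60, 12.3 and 27.0) rose from normal to tumor endothelium, with log2 ratios of 2.63 (2.11 to 3.16) and 2.24 (1.65 to 2.83), while E2f4, which acts with the pocket proteins in resting cells, was at 31.4, 39.2 and 69.1. E2f7, a repressor, was at 12.9, 8.61 and 6.10, a ratio of -0.58 (-1.11 to -0.09). Mybl2 (B-Myb) was at 0.694, 8.61 and 31.5 and E2f8 at 0.926, 4.74 and 44.6, and both had too few UMIs to enter the counts between the endothelial groups.

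**Figure D5:**
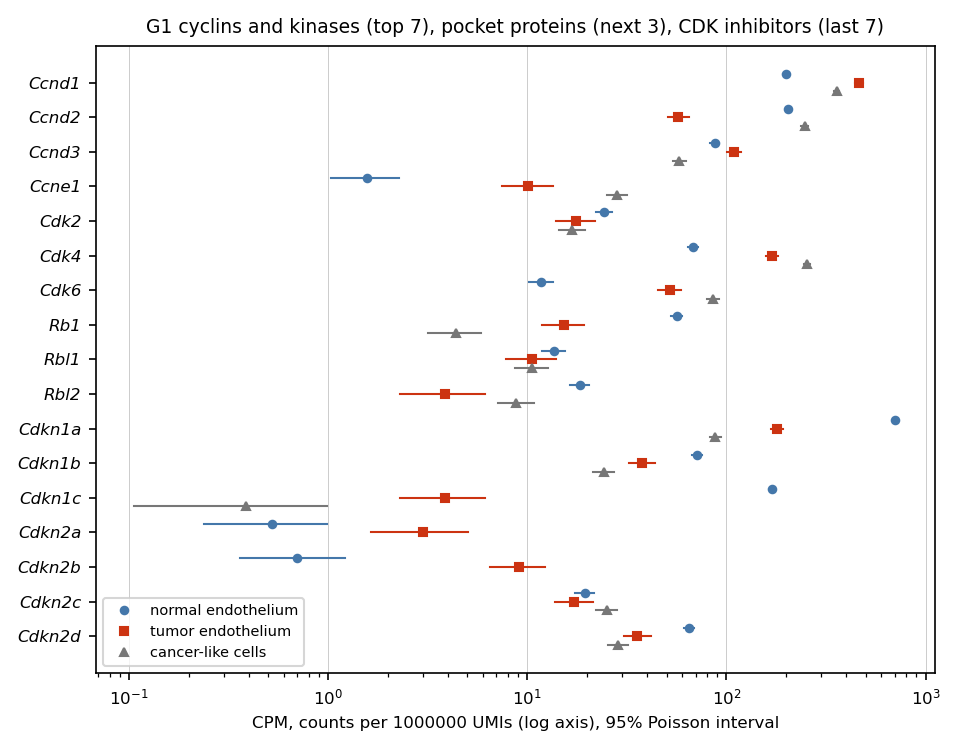
Levels of G1 cyclins and kinases, pocket proteins and CDK inhibitors are plotted in CPM (log axis) with 95% Poisson intervals, with the same symbols as for the 38 genes. Cdkn1a, Cdkn1c and Rb1 step down from normal endothelium to cancer-like cells, Cdk4 and Cdk6 step up, and Ccnd2 is lowest in tumor endothelium. Cdkn2a and Cdkn2b had no UMI in cancer-like cells and have no triangle.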

How the data were processed

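The authors mapped the droplet reads with Cell Ranger and used Seurat, with mm10 as the genome build, per the labels' processing notes (the version of Cell Ranger is not given in the sources used here), and deposited a table of raw UMI counts per gene and barcode for each library, without normalization. The tables hold 9047 barcodes with 40914092 UMIs (500 to 327449 each) and 704 barcodes with 18980858 UMIs (510 to 183550 each). From these counts, cells were filtered and grouped as described above (5200 and 456 kept), UMIs were summed per group and divided by all UMIs of the group. Levels have Poisson intervals, ratios exact conditional binomial intervals and shares Clopper-Pearson intervals, at 95% and for counting error only. With 1 library per group, cells are not replicates and no test was made. Thinning to 1900 UMIs per cell was without replacement with a fixed seed. Ratios and thinning were tested on simulated data. Scrublet in scanpy 1.11.5 called 0 of 6924 and 0 of 484 cells, so it did not work as a doublet caller, and doublets were treated only by an alternative without the top 5% of scores. The genes and lists were chosen with earlier results of these data known. Named genes are the 38 members, markers, and of each other list up to 3 genes with the highest level and up to 2 with the largest ratio of tumor over normal endothelium. Spc24, Ccnd3, E2f7, Cdkn2a, Cdkn2b, Cdkn2c and Cdkn2d fall outside this rule and were chosen after their values were seen. Cells in no group and cells removed by the 4 genes entered no comparison. Python 3.11.15, numpy 2.4.6, scipy 1.17.1, pandas 2.3.3 and matplotlib 3.10.9 were used. Alternatives covered cell filters, the cell rule, doublets, scaling, weight of cells, thinning depth, seed, the number of genes required and the most abundant genes.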

Additional observations from a re-analysis of the deposited data

Results flagged for a closer look

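Cells of the tumor library that entered no group also carried the 2 sets, above the cells left out of the normal library in the same way, which differ in make-up. The 28 cells removed because of any of the 4 marker genes (Ptprc, Myh11, Epcam and Cspg4) had 1064 S phase (1019.8 to 1110.0) and 3207 mitosis CPM (3130.0 to 3286), against 256 and 743 in the 1724 cells removed from the normal library. Cdh5 plus Pecam1 were higher than Rhox5, Hmga2 and Krt8 in 5 of the 28 and in 523 of the 1724, and lower in 23 and 960. The 12 kept cells in no group had 877 S phase (519.8 to 1386) and 2095 mitosis CPM (1516 to 2822), on 18 and 43 UMIs, against 301 and 616 in the 288 such cells of the normal library, of which 39 had Rhox5, Hmga2 and Krt8 higher, against 0 of the 12. The median depth of the removed cells was 78232 UMIs in the tumor library and 8102 in the normal library.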

How the results depend on the processing

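No paired analysis was possible because each group has 1 library. In the order S phase tumor over normal endothelium, S phase cancer-like over tumor endothelium, then the same for mitosis, the log2 ratios of the sums were 1.06, 0.25, 1.06 and 0.64, and none of 44 values under an alternative changed sign. Values that moved beyond their counting interval were as follows. With a mitochondrial limit of 5%, cancer-like over tumor endothelium was 0.18 and 0.55. With no removal by the 4 genes, the last was 0.69. Under the stricter cell rule, it was 0.06 for S phase and 0.54 for mitosis, and mitosis tumor over normal endothelium was 1.00. Without the top 5% of Scrublet scores, the mitosis ratios were 1.12 and 0.55. Without the most abundant member they were 1.93 and 0.77, and S phase tumor over normal endothelium was 1.28. Without Tubb4b, Hmgb2, Pcna and Slbp, chosen after seeing the data, the ratios were 1.60, 0.35, 2.50 and 0.88. With the 50 most abundant genes and mt- genes left out of the scale the last ratio was 0.69, and scaled by the median ratio, cancer-like over tumor endothelium was 0.18 and 0.56. As a mean over cells the ratios were 0.82, 0.42, 0.96 and 0.79, and at equal depth 0.70, 0.51, 0.85 and 0.88. The causes of these moves were not tested.

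Shares of cells with at least 3 members at equal depth kept the order normal endothelium, tumor endothelium, cancer-like cells, except for S phase with 1000 UMIs per cell. For S phase they were 0.814%, 6.32% and 6.18% with 1000 UMIs, 18.5%, 33.6% and 62.9% with 5000 UMIs, and 12.4%, 23.8% and 42.0% when 2 members sufficed. For mitosis they were 0.857%, 15.4% and 34.3%, then 10.0%, 40.8% and 79.2%, and 16.7%, 33.1% and 69.2%. The S phase share of tumor endothelium was 17.3% with a mitochondrial limit of 5%. Without the most abundant member, the shares of normal endothelium were 1.60% for S phase and 0.863% for mitosis. Without Pcna, Slbp, Tubb4b and Hmgb2, the shares were 1.02% and 6.69% for S phase in the endothelial groups and 0.732%, 15.5% and 45.0% for mitosis in the 3 groups. Of 684 ratios of single genes, 14 changed sign, 10 of them where the interval of the reported ratio already included 0 (Mcm4, Cdc6, Ccne2 and Ccnb2) and 4 where it did not, namely Tubb4b in cancer-like cells over tumor endothelium (-0.09 under the stricter rule and -0.02 as a mean over cells), Slbp in the same comparison (0.20 at equal depth) and Rrm1 in tumor over normal endothelium (-0.30 at equal depth). What can be said of single genes in tumor endothelium at 1900 UMIs is limited by depth, as 239 cells gave 268 S phase UMIs.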

Other observations

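Of the CDK inhibitors, Cdkn2c (p18) and Cdkn2d (p19) were higher inside than outside the cells with at least 3 mitosis genes at equal depth, in normal endothelium. There, Cdkn2c was at 159 and 16.7 CPM (22 and 119 UMIs), a log2 ratio of 3.25 (2.52 to 3.91), and Cdkn2d at 187 and 66.5, a ratio of 1.49 (0.87 to 2.06). In tumor endothelium Cdkn2d was at 139.6 and 16.6 (3.07, 1.57 to 4.75), on 13 and 6 UMIs, whereas Cdkn2c had 3 UMIs on either side. Cdkn1a was also higher inside in normal endothelium, at 973 and 733 (0.41, 0.15 to 0.66), and lower inside among cancer-like cells, at 48.8 and 132 (-1.43, -2.77 to -0.20). Ccnd2, lower in tumor than in normal endothelium, had intervals that included 0 inside against outside in all 3 groups, for example 151 and 209 in normal endothelium (-0.46, -1.16 to 0.16). These genes were read among 17 G1 cyclins, kinases, pocket proteins and CDK inhibitors and the E2F factors, and were named after their values were seen.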
